A study of Mus musculus with 6 samples.

Results

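The platelet-derived growth factor (PDGF) family was followed here as 7 genes of the 31053 in the count matrices, matched by gene symbol: the ligands Pdgfa, Pdgfb, Pdgfc and Pdgfd, the receptors Pdgfra and Pdgfrb, and the receptor-like gene Pdgfrl. On the mouse build GRCm38, Pdgfa lies on chromosome 5 at 138976014-138997370 (minus strand), Pdgfb on chromosome 15 at 79995874-80014977 (minus strand), Pdgfc on chromosome 3 at 81036416-81214040, Pdgfd on chromosome 9 at 6168584-6378850, Pdgfra on chromosome 5 at 75152292-75198215 and Pdgfrl on chromosome 8 at 40926212-40990785 (all 4 on the plus strand). Pdgfrb lies on chromosome 18.

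PDGF ligands are secreted dimers that bind receptor tyrosine kinases and drive growth, migration and survival of mesenchymal cells. The A and C chains act mainly through the alpha receptor and the D chain mainly through the beta receptor, while the B chain binds both. The C and D chains are secreted in a latent form that proteases must cut before they bind. In blood vessels, PDGF-B made by endothelial cells recruits pericytes, which carry the beta receptor and wrap capillaries, and the alpha receptor is a standard marker of fibroblasts. Pdgfrl encodes a protein that resembles the extracellular part of a PDGF receptor and has no kinase domain.

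The cells came from adult wild-type C57BL6 mice of both sexes, with no treatment. Cortical surface libraries (4) were made from tissue freed from the surface of the cortex, including the leptomeninges, and bone-associated libraries (2) from connective tissue dissected from the skull, including the dura. Viable cells were sorted as DRAQ5-positive and propidium iodide-negative and run on the 10x Genomics Chromium 3′ system, which counts each captured mRNA as a unique molecular identifier (UMI). Each library pooled several mice that had not been perfused, so the library is the replicate, blood cells are present, and variation among individual mice was not measured. The protocol in the sample labels names papain and the V-SVZ, whereas the study's methods describe collagenase D and dispase II on these tissues.

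After filtering, 8680 cells remained, 5272 from the cortical surface and 3408 from the bone-associated preparation, with a median of 5453 to 9525 UMIs per cell in the 6 libraries. Cells were clustered without the 7 genes, and the suffix -like marks a class assigned from fixed marker genes. Each preparation held 13 named classes. Mesenchymal markers were all detected (8 of 8) in the mesenchymal-like cells of every library, as were pericyte markers (5 of 5) in pericyte-like cells. So were VSMC (vascular smooth muscle cell) markers (7 of 7) in VSMC-like cells and endothelial markers (8 of 8) in endothelial-like cells. The classes were named from these markers, so their detection is no separate check of the names. All 5 pericyte markers were also detected in the VSMC-like and mesenchymal-like cells of both bone-associated libraries. Hemoglobin genes took 17.9% and 11.9% of the UMIs in kept cells of cortical surface libraries 3 and 4 and at most 0.468% elsewhere. On the cortical surface, VSMC-like cells numbered 101 and 159 in libraries 1 and 2 and 0 in libraries 3 and 4. Libraries shared 35 barcodes in all, 10 of them among kept cells.

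Levels are given as CPM (counts per 1e6): the UMIs of a gene scaled to the UMIs summed over the cells of a class in a library, for classes of at least 10 cells in that library. Among named classes of both preparations, Pdgfc was highest in VSMC-like, Pdgfra and Pdgfrl in mesenchymal-like and Pdgfrb in pericyte-like cells (the plot of levels by cell class). Pdgfa was highest in VSMC-like cells too, on the cortical surface by its mean only, where its range overlapped that of pericyte-like cells. Pdgfb was highest in endothelial-like cells by its mean, and Pdgfd in endothelial-like cells on the cortical surface and mesenchymal-like cells in the bone-associated libraries.

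**Figure D1:**
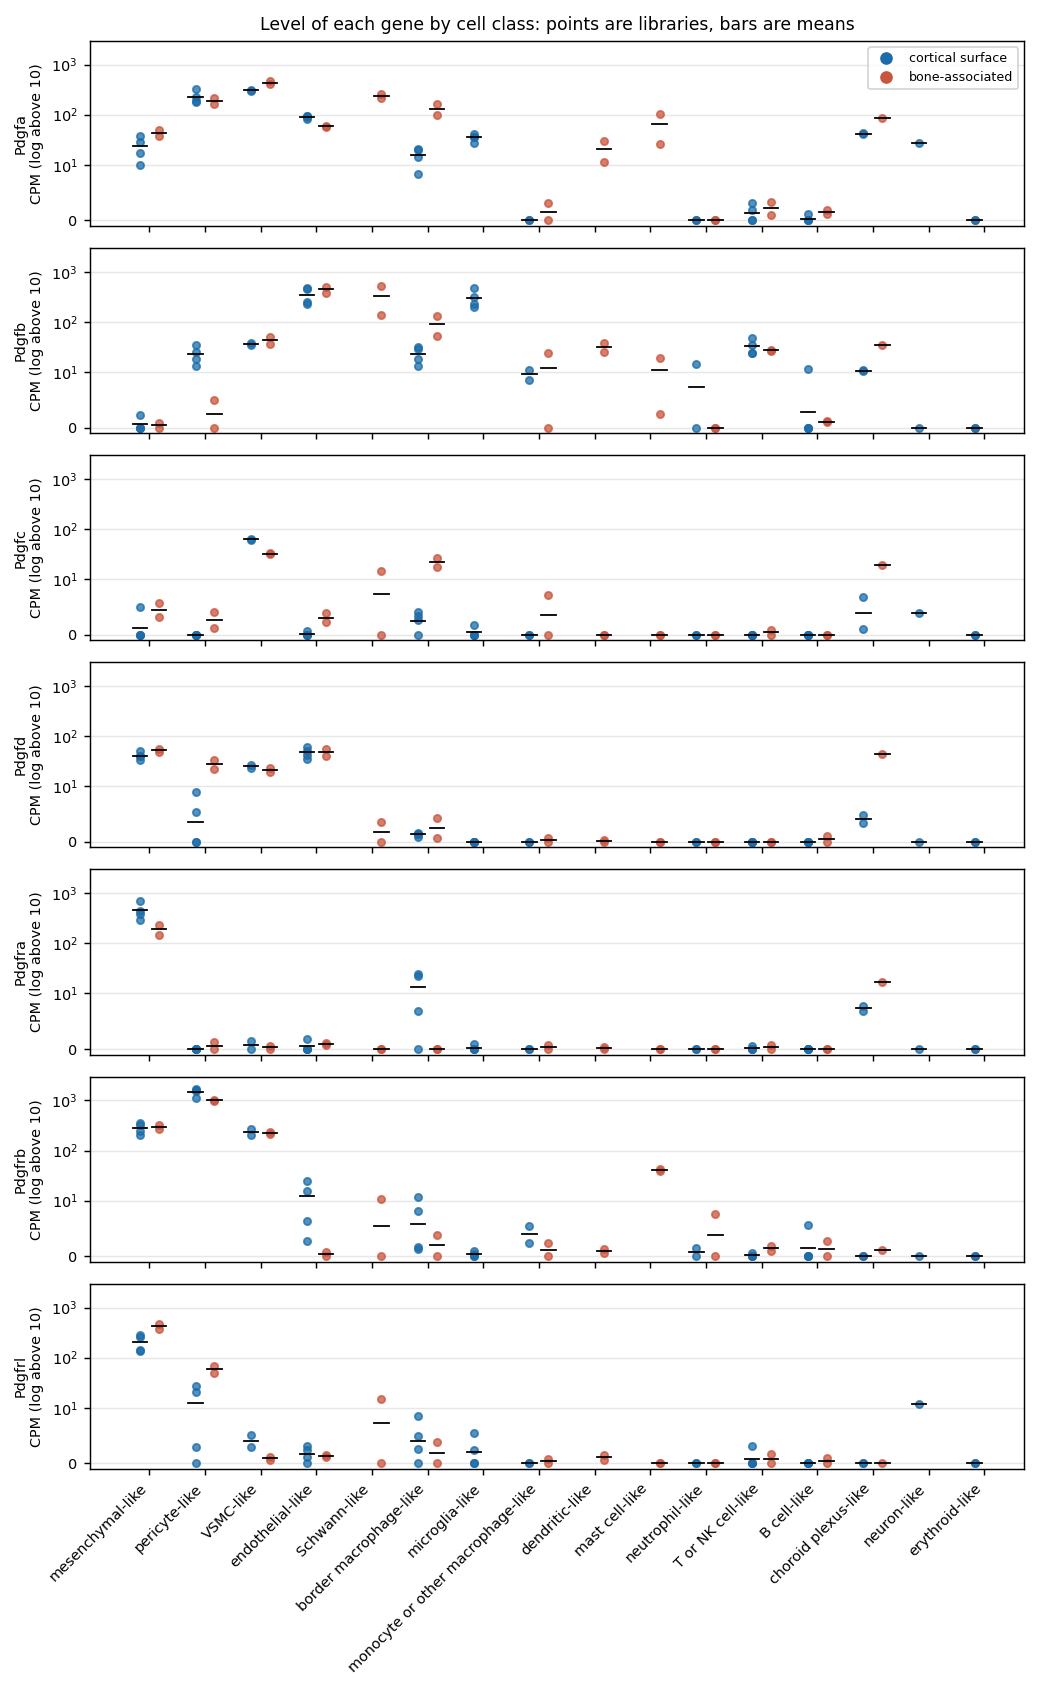
Level of the 7 genes in CPM (vertical axes, linear to 10 and logarithmic above) in each named class (horizontal axis). Points are libraries with at least 10 cells of the class and bars their means. Pdgfra stood at 144 CPM or more in every mesenchymal-like sum and at 24.5 CPM or less in every other named class, and Pdgfrb was highest in pericyte-like cells of both preparations.

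Among the ligands and the named classes, Pdgfa was highest in VSMC-like cells, the contractile cells of arterial walls. Its level was 304 and 314 CPM in cortical surface libraries 1 and 2 (309 ± 7.5, SD, n = 2) and 406 and 461 CPM in the bone-associated libraries (434 ± 38.8, n = 2). In the cortical surface libraries the pericyte-like cells came next at 323, 189, 183 and 221 CPM (229 ± 64.9, n = 4), and this range overlapped that of the VSMC-like cells. Endothelial-like cells followed without overlap at 92.0, 93.7, 93.3 and 82.4 CPM. In the bone-associated libraries the order after VSMC-like cells was Schwann-like cells (255 and 216 CPM), pericyte-like cells (163 and 217 CPM) and border macrophage-like cells (101 and 165 CPM), each overlapping its neighbour. VSMC-like cells were 4.93% of the cortical surface cells and held 32.3% of the Pdgfa UMIs, and 7.86% of the bone-associated cells with 40.4% of the UMIs. Unnamed cells held 37.8% and 27.4% of the Pdgfa UMIs, and some of their clusters, given with the clusters, stood above the VSMC-like level.

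Pdgfb was highest in endothelial-like cells, the lining of blood vessels. It stood at 466, 448, 253 and 228 CPM in cortical surface libraries 1 to 4 (349 ± 126, n = 4) and at 508 and 380 CPM in the bone-associated libraries (444 ± 90.4, n = 2). Cortical surface libraries 3 and 4, those with the hemoglobin UMIs, were the lower pair, and with hemoglobin genes left out of the totals they still stood at 277 and 255 CPM. Microglia-like cells, the resident macrophages of the brain, came next at 470, 316, 224 and 194 CPM (301 ± 124, n = 4) and overlapped the endothelial-like range. These 2 classes held 36.9% and 31.8% of the Pdgfb UMIs of the cortical surface cells. In the bone-associated libraries, where no cluster was microglia-like, Schwann-like cells came second at 510 and 139 CPM, overlapping the endothelial-like cells, with all 84 UMIs in 13 of 85 cells, and border macrophage-like cells followed at 52.5 and 132 CPM.

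Pdgfc was found at low levels and, among named classes, was highest in VSMC-like cells. Its level there was 61.7 and 64.4 CPM in the cortical surface libraries, where the 215 UMIs of that class were 71.2% of all 302. In the bone-associated libraries it was 32.1 and 32.5 CPM, and border macrophage-like cells followed without overlap at 17.5 and 26.4 CPM. VSMC-like cells there held 40% of the 265 Pdgfc UMIs, unnamed cells 23.0%, border macrophage-like cells 14.3% and mesenchymal-like cells 9.06%. Pericyte-like cells of the cortical surface held no Pdgfc UMI in 237 cells, which allows up to 2.84 CPM (3 UMIs over the group).

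Pdgfd was shared between endothelial-like and mesenchymal-like cells. In the cortical surface libraries it stood at 61.3, 51.5, 34.7 and 41.7 CPM in endothelial-like cells and at 39.5, 33.1, 50.5 and 40.3 CPM in mesenchymal-like cells, with overlapping ranges. In the bone-associated libraries the order of the means was the opposite, at 49.0 and 56.4 CPM in mesenchymal-like cells and 55.1 and 39.6 CPM in endothelial-like cells, again with overlap. The bone-associated endothelial-like cells left out 154 unnamed cells of clusters with Sema3g, an arterial gene, among their leading genes. With them counted as endothelial-like, the log2 difference of Pdgfd in that class between the preparations went from 0.066 to -0.24. Whether the order of the means holds with them was not tested. VSMC-like cells followed at 22.8 and 27.0 CPM on the cortical surface, below both classes.

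Of the receptors, Pdgfra was highest in mesenchymal-like cells, the fibroblasts of these preparations. Those cells held 76.6% of all Pdgfra UMIs of the cortical surface and 96.1% of the bone-associated ones. The level was 449, 293, 387 and 715 CPM in cortical surface libraries 1 to 4 (461 ± 181, n = 4) and 235 and 144 CPM in the bone-associated libraries (189 ± 64.3, n = 2). The next named class, border macrophage-like cells of the cortical surface, lay far below without overlap at 6.79, 22.3, 24.5 and 0 CPM. An unnamed cortical surface cluster of 31 cells led by Slc1a2, Cspg5 and Aldoc held 113 UMIs in 25.8% of its cells, a pooled level of 279 CPM, near that of mesenchymal-like cells in library 2. Of the Pdgfra UMIs, unnamed cells held 24.9% of 386 in library 1 and 2.77% of 469 in library 2. In libraries 3 and 4 they held 8.51% of 94 and 18.4% of 98, so that pooled level came mostly from library 1. Another unnamed cluster of 15 cells led by C1ql1 and Olig1, genes of oligodendrocyte precursors, which are known to carry the alpha receptor, stood at 78.5 CPM.

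Among named classes, Pdgfrb was highest in pericyte-like cells, at 1626, 1709, 1117 and 1567 CPM on the cortical surface (1505 ± 265, n = 4) and 1034 and 982 CPM in the bone-associated libraries (1008 ± 36.6, n = 2). Mesenchymal-like cells came second without overlap, at 242, 208, 320 and 362 CPM and at 330 and 269 CPM. VSMC-like cells followed at 268 and 203 CPM and at 239 and 212 CPM, overlapping the mesenchymal-like range on the cortical surface only. Endothelial-like cells were at 24.2 CPM or less in every library. Unnamed cells held 46.9% of the cortical surface Pdgfrb UMIs and pericyte-like cells 28.6%, against 23.9% and 26.1% in the bone-associated libraries. An unnamed cortical surface cluster, given with the clusters, lay within the pericyte-like range. Mast cell-like cells of the bone-associated libraries stood at 38.3 and 42.4 CPM, with 17 of 72 cells holding a Pdgfrb UMI. In those mast cell-like cells the 5 pericyte markers summed to 0 and 2.36 CPM and the 8 mesenchymal markers to between 9.57 and 30.6 CPM.

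Pdgfrl followed the mesenchymal-like cells as Pdgfra did, but with the higher values in the bone-associated libraries. It stood at 143, 254, 135 and 282 CPM on the cortical surface (203 ± 75.4, n = 4) and at 369 and 476 CPM in the bone-associated libraries (423 ± 76.1, n = 2). Mesenchymal-like cells held 76.4% and 92.7% of its UMIs. Pericyte-like cells came second without overlap, at 20.2, 27.0, 0 and 2.99 CPM and at 50.02 and 66.9 CPM.

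To ask how senders and receivers of the vessel wall differ within a preparation, the summed UMIs of 3 classes were each compared with pericyte-like cells by edgeR's quasi-likelihood test with the library as a block. In each preparation these classes and the pericyte-like cells were fitted together. They shared 1 estimate of the spread, because 2 libraries alone leave too few degrees of freedom. The bone-associated comparisons were of 2 libraries against 2. A gene entered a test when more than 10% of the cells of 1 of the groups held a UMI of it. It was called when its p, adjusted after Benjamini and Hochberg, lay under 0.05 and its log2 fold change reached 1.3 in either direction. A gene can pass the filter through the 1 class where it is high, so the counts below describe the members and support nothing further. The bone-associated pericyte-like cells included 59 cells of clusters led by Ccl19 and Ccl11. A Ccl19-led cluster of the cortical surface was unnamed and entered no test, so the pericyte-like cells differ in make-up between the preparations.

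Endothelial-like cells held more Pdgfb and less Pdgfrb than pericyte-like cells in both preparations. On the cortical surface, 3 of 4 members tested were called, where 24.9% of all 7407 genes were. Pdgfb was higher in endothelial-like cells by 3.90 on the log2 scale (SE 0.23, edgeR adjusted p = 2.61e-19) and Pdgfd by 3.35 (SE 0.48, edgeR adjusted p = 7.19e-08). The 237 pericyte-like cells of the cortical surface held only 5 Pdgfd UMIs, so the sizes of all Pdgfd differences from them rest on few UMIs. Pdgfrb fell by 6.63 (SE 0.27, edgeR adjusted p = 4.08e-25). Pdgfa, at -1.27 (SE 0.18), passed the p and missed the fold limit. In the bone-associated libraries, 4 of 5 members were called, where 23.6% of all 8481 genes were. Pdgfb was higher by 6.70 (SE 0.35), with 4 UMIs in the 140 pericyte-like cells against 1642 in 445 endothelial-like cells. Pdgfa fell by 1.78 (SE 0.20) and Pdgfrl by 5.52 (SE 0.40). Pdgfrb was in 1055 UMIs of the pericyte-like and 2 UMIs of the endothelial-like cells, a ratio of 1928 with a 95% counting interval of 532 to 15940. Pdgfd was not called there (0.83, SE 0.33, edgeR adjusted p = 0.0534). Without the Ccl11-led clusters, an alternative chosen after the data were seen, it was called (1.81).

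VSMC-like cells held Pdgfc, which pericyte-like cells lacked or nearly lacked, and less Pdgfrb. On the cortical surface 3 of 5 members were called, where 16% of all 8192 genes were. Pdgfc, with 215 UMIs in VSMC-like and 0 in pericyte-like cells, was at least 22.3-fold higher (floor of 3 UMIs over the group). DESeq2 did not call it (log2 6.74, adjusted p = 0.421), with adjusted p-values from 4.46e-14 to 0.421 over the alternatives. Pdgfd was higher by 2.66 (SE 0.56, edgeR adjusted p = 0.000159) and Pdgfrb fell by 2.38 (SE 0.27, edgeR adjusted p = 3.56e-10). Pdgfa (0.74, SE 0.20) and Pdgfb (0.58, SE 0.33) were not called. In bone-associated cells 5 of 6 members were called, where 17.6% of all 8208 genes were. Pdgfa was higher by 1.45 (SE 0.18) and Pdgfb by 3.66 (SE 0.49), and Pdgfrb fell by 1.86 (SE 0.16). The counted ratio was 17.1 (4.63 to 143) for Pdgfc, with 2 UMIs in pericyte-like cells, and 69.0 (22.6 to 343) in favour of pericyte-like cells for Pdgfrl, with 3 UMIs in VSMC-like cells.

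Mesenchymal-like cells were set apart from pericyte-like cells by Pdgfra and Pdgfrl. On the cortical surface 5 of 5 members tested were called, where 19.6% of all 7901 genes were. Pdgfra was at least 127-fold higher, with 802 UMIs against 0. Pdgfrl was higher by 4.02 (SE 0.34, edgeR adjusted p = 4.80e-14) and Pdgfd by 3.09 (SE 0.53, edgeR adjusted p = 5.18e-06), while Pdgfa fell by 2.80 (SE 0.24) and Pdgfrb by 2.37 (SE 0.21). In bone-associated cells 4 of 5 members were called, where 16.6% of all 9543 genes were. The counted ratio of Pdgfra was 166 (29.7 to 6574), with 1 UMI in pericyte-like cells. Pdgfrl was higher by 2.85 (SE 0.20), Pdgfa fell by 2.26 (SE 0.21) and Pdgfrb by 1.76 (SE 0.16). Pdgfd (1.13, SE 0.32) passed the p and missed the fold limit, and was called without the Ccl11-led clusters (2.11).

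**Figure D2:**
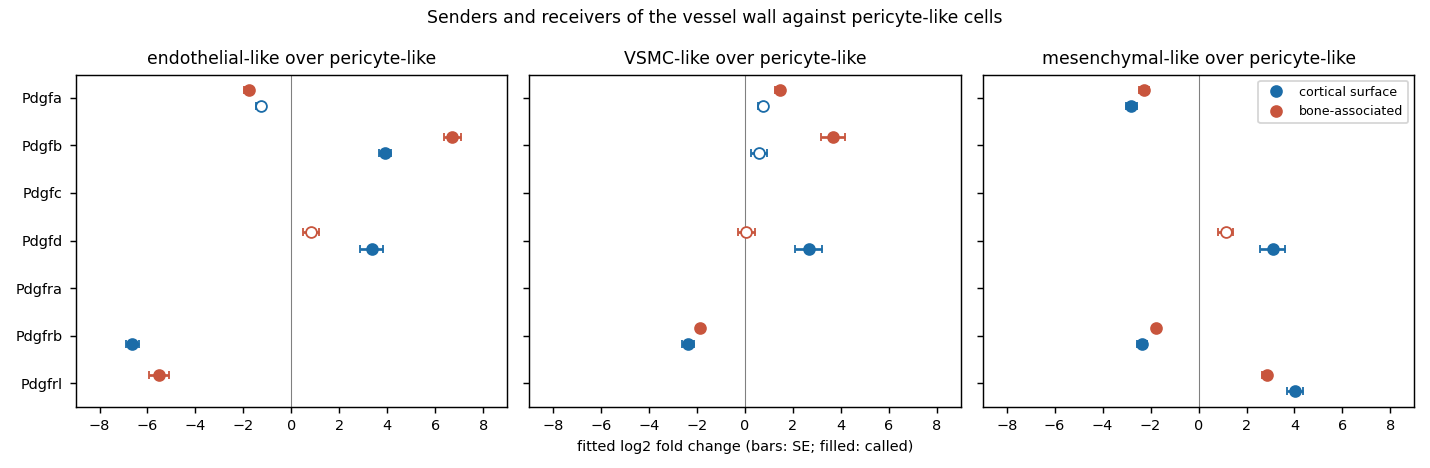
Fitted log2 fold change (horizontal axis) of each gene in endothelial-like, VSMC-like and mesenchymal-like cells over pericyte-like cells, by preparation. Bars are SE, filled points were called, and genes with 3 or fewer UMIs in either group are left out. Pdgfb lay to the right in endothelial-like cells (3.90 and 6.70) and Pdgfrb to the left in all 3 classes wherever drawn. The pericyte-like cells differ in make-up between the preparations.

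Between the macrophages of the cortical surface, Pdgfb was lower in border macrophage-like cells, which line the meninges and vessels, than in microglia-like cells. The levels were 28.4, 18.2, 13.04 and 31.7 CPM against 470, 316, 224 and 194 CPM in the same libraries, without overlap. Of 2 members tested 1 was called, where 16.5% of all 7510 genes were. Pdgfb fell by 3.63 (SE 0.18, edgeR adjusted p = 6.07e-13), while Pdgfa (-1.07, SE 0.26) passed the p and missed the fold limit. An unnamed cluster of 299 cells led by H2-Eb1, H2-Aa and Cd74, genes of antigen presentation, entered no test and held Pdgfb between these classes, at 214, 179, 143 and 103 CPM.

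The same class was then compared between the cortical surface and the bone-associated libraries. Preparation, dissection and tissue coincide with the groups in these comparisons and cannot be told apart. Across all genes tested the median log2 difference lay between -0.02 and 0.03. Whether libraries of the groups overlap is given as description only, since the share of all genes without overlap is not given beside it.

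Border macrophage-like cells held 3 ligands at lower levels on the cortical surface than in the bone-associated libraries, and these were the only members tested. All 3 were called and lower, where 6.3% of all 7743 genes were called in either direction and 4.8% were called lower. Pdgfc passed the filter only through the bone-associated cells, with 38 UMIs in 113 cells against 18 in 714 on the cortical surface. Pdgfa was at 20.4, 14.1, 19.6 and 8.28 CPM against 101 and 165 CPM, a fall by 3.30 on the log2 scale (SE 0.31, edgeR adjusted p = 0.000165). Pdgfb was at 28.4, 18.2, 13.04 and 31.7 CPM against 52.5 and 132 CPM, a fall by 2.34 (SE 0.37, edgeR adjusted p = 0.00379). Pdgfc fell by 3.26 (SE 0.50, edgeR adjusted p = 0.00299), with bone-associated values of 17.5 and 26.4 CPM. No cortical surface library reached the lower bone-associated library for any of the 3 ligands, which is description only.

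The bone-associated class was 113 cells, only 16 of them in library 1. Without bone-associated library 2, Pdgfa was still called (-2.65, SE 0.45, edgeR adjusted p = 0.0199), but Pdgfb (-1.18, edgeR adjusted p = 0.271) and Pdgfc (-2.61, edgeR adjusted p = 0.215) were not. Over all alternatives the adjusted p of Pdgfa ran up to 0.0199, that of Pdgfb from 3.82e-05 to 0.271 and that of Pdgfc from 0.000358 to 0.215. The 8 border macrophage markers summed to 8303 and 8763 CPM in the bone-associated libraries and to between 13591 and 16190 CPM on the cortical surface, and the 6 monocyte markers to 139 and 403 CPM against 5.09 to 48.9 CPM. The 8 endothelial markers summed to 137 and 407 CPM against 223 to 283 CPM, and the 7 VSMC markers to 35.0 and 38.1 CPM against 19.3 to 81.5 CPM. The part of these differences in the result was not tested. The 3 cortical surface clusters of the class had medians of 13279, 6456 and 1858 UMIs per cell and Pdgfa at 17.2, 17.5 and 4.27 CPM, and the bone-associated cluster a median of 13173 UMIs and 155 CPM, and the part of depth was not tested. The unnamed cluster led by H2-Eb1 lay outside the comparison. Its Pdgfb reached the bone-associated values, and its Pdgfa stood at 22.7 CPM.

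The RefSeq start of Pdgfc coincides with the start of the gene as given above. The 250 bases before it are shown as the promoter sequence of Pdgfc, which among named classes was highest in VSMC-like cells (GRCm38.p6, chr3:81036166-81036415, plus strand, 5′ to 3′).
Pdgfc: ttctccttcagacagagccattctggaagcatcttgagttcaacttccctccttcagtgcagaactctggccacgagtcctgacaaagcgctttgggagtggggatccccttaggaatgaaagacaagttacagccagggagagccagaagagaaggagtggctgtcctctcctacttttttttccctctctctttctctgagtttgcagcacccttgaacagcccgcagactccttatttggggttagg
The stretch was 50.8% G or C. On both strands it was searched for the motif GGGCGG (GC box), the motif TATAAA (promoter box), the motif GAGGAA (PU.1 core) and the motif TGANTCA (AP-1), and held none of them, so no base is in capitals. Among 32851 promoters, windows of this length held these motifs in 32.7%, 12.4%, 23.3% and 6.75% of cases. A missing match says only that these letters are not in this window.

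In the cells named pericyte-like, Pdgfrl and Pdgfd were lower on the cortical surface. Of 4 members tested 2 were called, where 8.7% of all 7226 genes were. Both called members passed the filter only through the bone-associated cells, with 15 Pdgfrl and 5 Pdgfd UMIs in the 237 cortical surface cells. Pdgfrl was at 20.2, 27.0, 0 and 2.99 CPM against 50.02 and 66.9 CPM, a fall by 2.20 (SE 0.51, edgeR adjusted p = 0.00395). Pdgfd was at 0, 5.41, 0 and 8.97 CPM against 33.4 and 21.9 CPM, a fall by 2.45 (SE 0.70, edgeR adjusted p = 0.0220). Neither pair of groups overlapped, which is description only. The receptor Pdgfrb, at 1117 to 1709 CPM against 982 and 1034 CPM, did not overlap either but was not called (0.51, SE 0.31, edgeR adjusted p = 0.415), nor was Pdgfa (0.14, SE 0.26).

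Both calls depended on single libraries. The Pdgfd call was lost with DESeq2 (adjusted p = 0.141) and without cortical surface library 1 or 2 or either bone-associated library, with adjusted p-values between 0.0502 and 0.119 in those edgeR fits. The Pdgfrl call was lost without bone-associated library 2 (-1.77, edgeR adjusted p = 0.190). In bone-associated cells the class joined a cluster of 81 cells led by Abcc9 and Higd1b with clusters of 32 and 27 cells led by Ccl19 and Ccl11. On the cortical surface a cluster of 268 cells led by Ccl19 and Prrx1 was unnamed and outside the test, so the classes compared differ in make-up. That cluster held Pdgfd at 45.4, 43.9, 27.3 and 39.0 CPM, within or above the bone-associated values of the class, and Pdgfrl at 32.5, 34.8, 20.5 and 20.7 CPM, below them. Without the Ccl11-led clusters, an alternative chosen after the data were seen, Pdgfrl was no longer called (-1.68, edgeR adjusted p = 0.110) and Pdgfd did not pass the filter. Over all alternatives the adjusted p ran from 0.00116 to 0.190 for Pdgfrl and from 0.0126 to 0.141 for Pdgfd. The 5 pericyte markers summed to 2910 and 2975 CPM in the bone-associated pericyte-like cells and to between 3311 and 6407 CPM on the cortical surface. The 8 mesenchymal markers summed to 2509 and 3810 CPM against 562 to 993 CPM, and the 7 VSMC markers to 3908 and 4373 CPM against 1652 to 2555 CPM. Their part in the result was not tested.

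No member was called between the preparations in mesenchymal-like cells, of 5 tested, where 15% of all 9543 genes were. DESeq2 also called 0, and 2 members had an unadjusted p under 0.05 in edgeR. Pdgfra was higher on the cortical surface (449, 293, 387 and 715 CPM against 235 and 144 CPM, without overlap) by 1.29 (SE 0.33, edgeR adjusted p = 0.00740), just under the fold limit of 1.3. Its log2 difference ran from 0.98 to 1.62 over 16 alternatives, with adjusted p-values from 5.13e-05 to 0.121, and 6 of these called it. Pdgfrl lay the other way (-1.05, SE 0.30, edgeR adjusted p = 0.0172), also without overlap. Pdgfa (-0.55, SE 0.35), Pdgfd (-0.44, SE 0.32) and Pdgfrb (-0.08, SE 0.28) did not pass the p.

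Endothelial-like and VSMC-like cells held no member past both limits. In endothelial-like cells 0 of 3 members tested were called by edgeR or DESeq2, where 6.54% of all 7740 genes were, and 1 had an unadjusted p under 0.05. This was Pdgfa, higher on the cortical surface by 0.64 (SE 0.21, edgeR adjusted p = 0.0465). Pdgfb differed by -0.33 (SE 0.23), and by -0.54 to -0.02 over 17 alternatives. Pdgfd differed by 0.07 (SE 0.24). The bone-associated endothelial-like cells left out 154 unnamed cells of Sema3g-led clusters, some of them high in Pdgfb (given with the clusters). The classes compared therefore differ in make-up. With those cells counted as endothelial-like, an alternative chosen after the data were seen, Pdgfd differed by -0.24 (SE 0.23). In VSMC-like cells 0 of 5 members were called by either tool, where 6.31% of all 8324 genes were, and 2 had an unadjusted p under 0.05. Pdgfc was higher on the cortical surface by 0.85 (SE 0.27, edgeR adjusted p = 0.0432), and Pdgfa differed by -0.61 (SE 0.24, edgeR adjusted p = 0.118). With 2 libraries in at least 1 group of every comparison, smaller differences may have gone unseen.

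**Figure D3:**
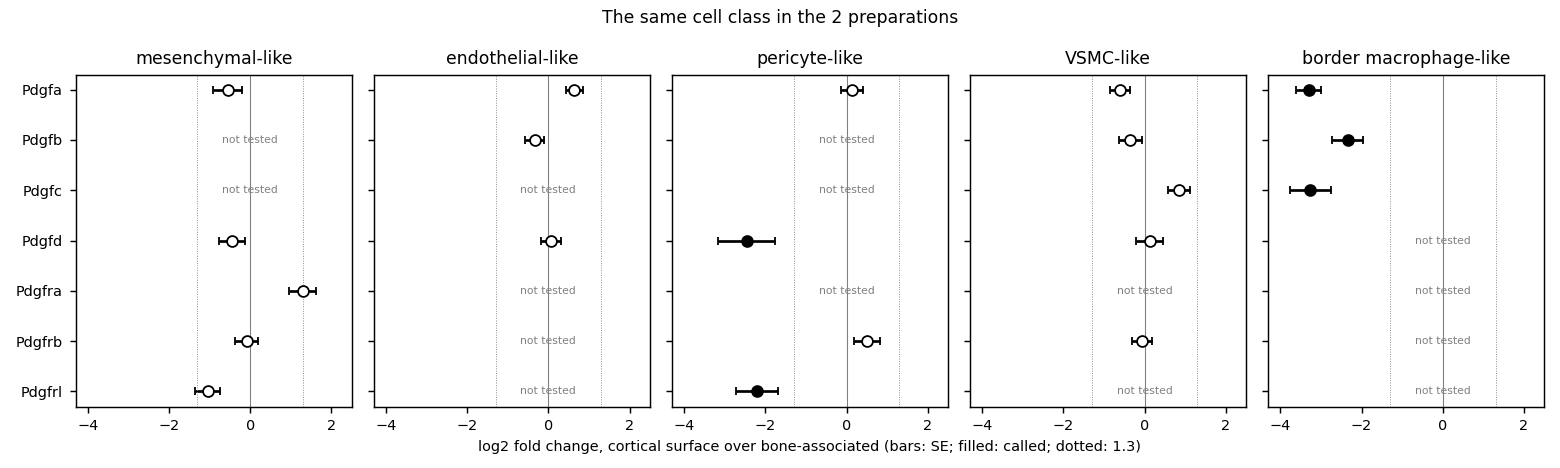
Log2 fold change, cortical surface over bone-associated (horizontal axis), of each gene in 5 classes, with SE bars. Filled points were called, dotted lines mark 1.3 in either direction, and genes that did not pass the filter are written as not tested. The called points were Pdgfa, Pdgfb and Pdgfc in border macrophage-like cells and Pdgfd and Pdgfrl in pericyte-like cells, all to the left of 0.

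The genes around the family were described with 4 lists, chosen with earlier results of these data known. Gene totals here count a gene once per comparison, so 1 gene can count in several classes against the same bone-associated libraries. A gene can also pass the filter through the 1 group where it is high. The counts therefore describe the lists and support nothing further. Among co-receptors and ligand-binding proteins (Nrp1, Nrp2, Lrp1, Cspg4, Sparc, Thbs1 and A2m), 14 of 26 tests between the preparations were called lower on the cortical surface and 1 higher, where the 5 comparisons called 6.3% to 15% of all genes. The list's median log2 difference lay between -2.02 (mesenchymal-like) and -0.30 (border macrophage-like), where that of all genes lay between -0.02 and 0.03. Thbs1, a secreted matrix protein that binds PDGF, was lower on the cortical surface in mesenchymal-like (-3.55, SE 0.34), pericyte-like (-5.73, SE 0.49), VSMC-like (-3.35, SE 0.32) and border macrophage-like cells (-3.28, SE 0.48), with edgeR adjusted p-values of 0.00241 or less. In endothelial-like cells its normalised mean was 0.916 against 73.0 CPM. Nrp1, a co-receptor of several growth factors, was lower too in mesenchymal-like (-2.48, SE 0.35), endothelial-like (-1.41, SE 0.22) and VSMC-like cells (-1.45, SE 0.34). The call in the other direction was Cspg4, the pericyte proteoglycan NG2, higher in cortical surface pericyte-like cells by 1.83 (SE 0.31, edgeR adjusted p = 0.000167). The pericyte-like cells differ in make-up between the preparations. List calls were not checked without the Ccl11-led clusters or without single libraries.

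Of the ligand-activating proteases, 3 of 17 tests were called, where the 5 comparisons called 6.3% to 15% of all genes. Plat, which encodes tissue plasminogen activator and cuts the latent C chain, was higher on the cortical surface in mesenchymal-like (1.77, SE 0.29, edgeR adjusted p = 9.94e-05) and VSMC-like cells (2.01, SE 0.39, edgeR adjusted p = 0.000330). Furin, a proprotein convertase that processes the A and B chains, fell by 1.83 in border macrophage-like cells (SE 0.31, edgeR adjusted p = 0.00521), the class whose Pdgfa, Pdgfb and Pdgfc were lower too. Of the receptor-proximal signalling proteins 1 of 59 tests was called (Nck2, an adaptor, 1.70 in pericyte-like cells, SE 0.51, with overlapping groups), and of the receptor-limiting proteins 1 of 29 (Ptprj, a phosphatase, 1.73 in endothelial-like cells, SE 0.27). The medians of these 3 lists lay between -0.55 and 0.42.

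Against pericyte-like cells of the same preparation, 14 of 78 tests of receptor-proximal signalling proteins were called lower and 5 higher. Together these 19 are near the 16% to 24.9% of all genes called in the same comparisons. Pik3r1, the regulatory subunit of PI3 kinase, was lower in endothelial-like (-2.73, SE 0.19) and VSMC-like cells (-1.63, SE 0.21) of the cortical surface. Src, a kinase recruited to active receptors, was lower there in endothelial-like (-3.83, SE 0.48) and mesenchymal-like cells (-2.69, SE 0.48). In bone-associated cells Src fell by 4.28 in endothelial-like cells (SE 0.62) and Plcg1, a phospholipase, was higher there by 2.39 (SE 0.34). Of the co-receptors 7 of 35 tests were higher and 15 lower, among them Lrp1, lower in endothelial-like cells of the cortical surface (-5.07, SE 0.28) and of the bone-associated libraries (-7.36, SE 0.28). Of the proteases 2 of 20 tests were higher and 2 lower, and of the receptor-limiting proteins 1 of 33 was higher and 1 lower. Between border macrophage-like and microglia-like cells, Sparc, a secreted protein that binds the B chain, fell by 5.75 (SE 0.25), and of all 26 tests of the lists 3 were higher and 4 lower.

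Levels were not even within a class (the plot of clusters). In endothelial-like cells, the cluster with venous genes (Vwf, Slc38a5) had the lowest Pdgfb of the 3 larger cortical surface clusters at 227 CPM pooled, with 250, 315, 110 and 153 CPM in libraries 1 to 4. The cluster led by Spock2 and Slco1c1 had 477 CPM, with 581, 518, 410 and 299 CPM. The order held within each of the 4 libraries, and in both clusters libraries 3 and 4 were the lower pair. In bone-associated cells the cluster led by Selp and Vwf was lowest at 132 and 170 CPM, and that led by Igfbp3, Gpihbp1 and Plvap stood at 739 and 542 CPM. An unnamed cluster of 101 cells led by Sema3g, an arterial gene, held 1051 and 783 CPM. Pdgfd was highest in clusters led by the arterial genes Gkn3 and Fbln5, at 111 CPM on the cortical surface and 97.5 CPM in the bone-associated libraries, where the cluster was unnamed.

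Among cells with Pdgfrb, Pdgfa and the receptor differed in order. On the cortical surface the 268 unnamed cells of the Ccl19-led cluster held Pdgfrb at 1409, 1216, 1401 and 1440 CPM, within the pericyte-like range, and Pdgfa at 461, 386, 314 and 466 CPM, where VSMC-like cells held 304 and 314 CPM. These cells entered no test. They are among the unnamed cells that held 46.9% of the cortical surface Pdgfrb UMIs. Unnamed bone-associated clusters led by Mnd1 or Olfr558 with Rgs5 and Casq2 also held Pdgfa above the VSMC-like cells, at 526 and 615 CPM pooled, with Pdgfrb at 441 and 581 CPM.

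Among bone-associated mesenchymal-like cells, Pdgfra and Pdgfrl ran in opposite order in the 2 clusters with at least 10 cells in both libraries. The cluster led by Apod and Dcn held Pdgfra at 497 and 218 CPM and Pdgfrl at 166 and 222 CPM. The cluster led by the cartilage and tendon genes Comp and Chad held Pdgfra at 148 and 140 CPM and Pdgfrl at 599.9 and 628 CPM. A cluster led by Cpz and Mfap4, with 10 cells or more in library 2 only, was low in Pdgfra (79.97 CPM) and below the Comp-led cluster in Pdgfrl (485 CPM). Only 12 and 14 cells of these clusters came from library 1. In the Schwann-like class Pdgfb lay in the cluster led by Scn7a and Cdh19 at 556 and 242 CPM. The Schwann-like class also held 643 and 784 CPM of summed pericyte markers and 322 and 356 CPM of endothelial markers, and their part in its ligand levels was not tested.

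**Figure D4:**
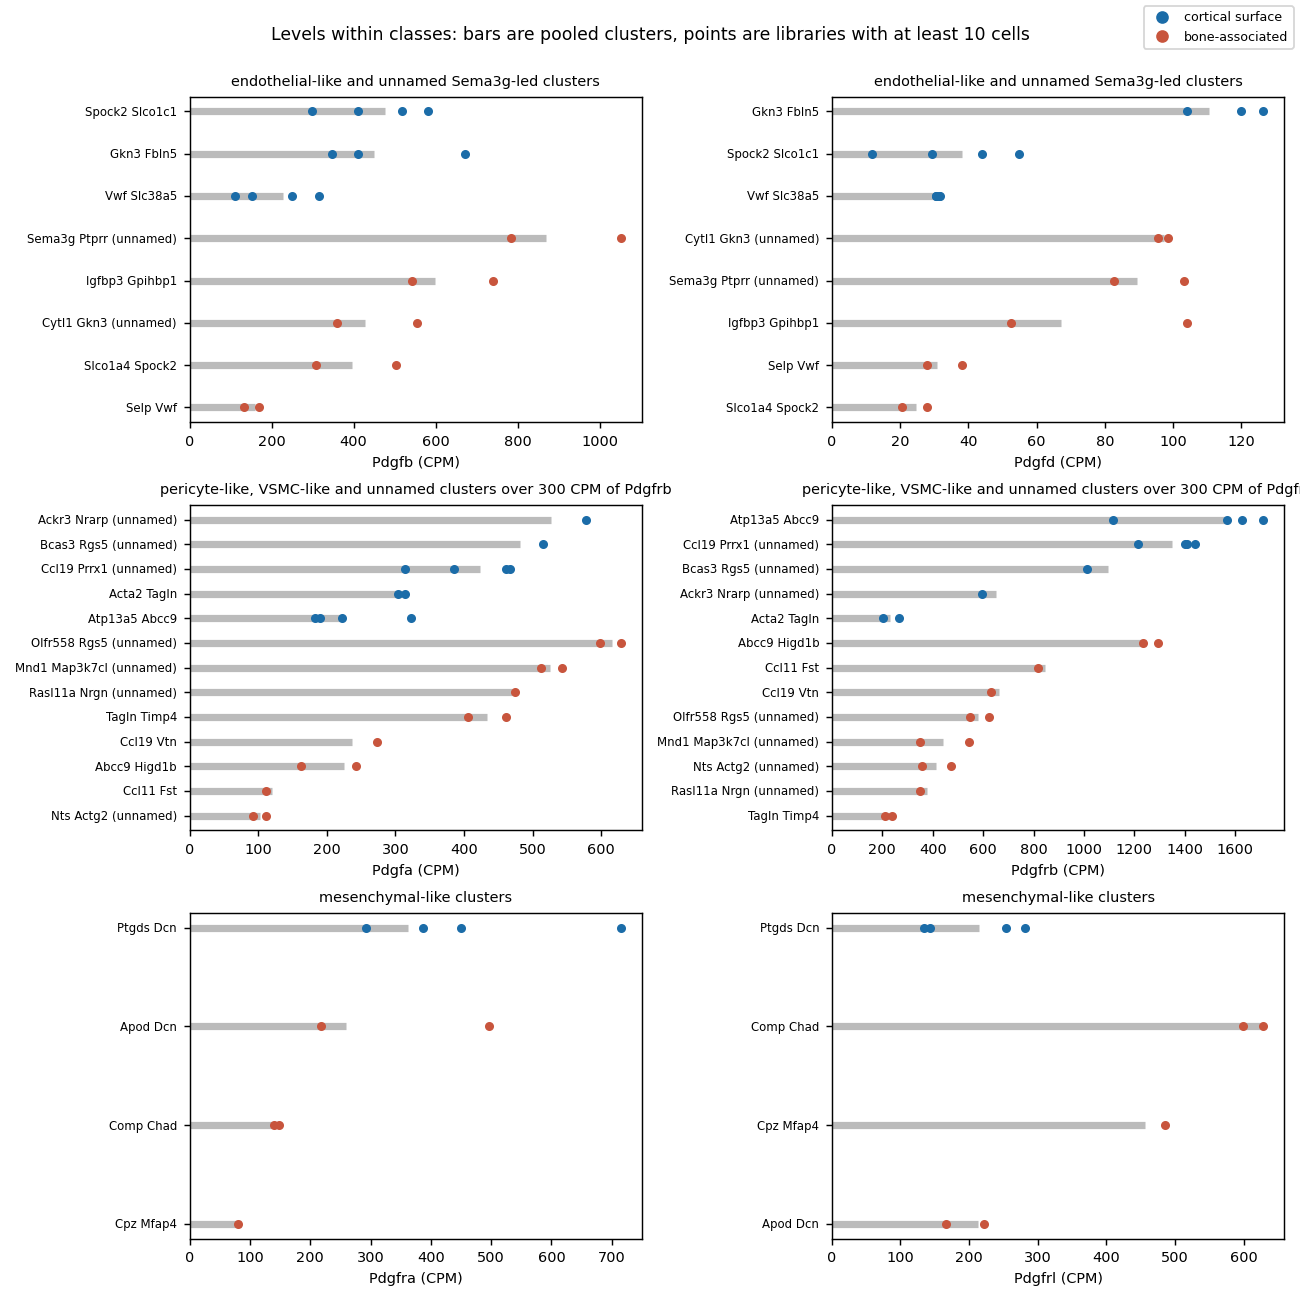
Levels in CPM (horizontal axes) of Pdgfb and Pdgfd in endothelial-like clusters, Pdgfa and Pdgfrb in pericyte-like, VSMC-like and high-Pdgfrb unnamed clusters, and Pdgfra and Pdgfrl in mesenchymal-like clusters, for clusters of at least 20 cells named by their leading genes. Grey bars are pooled clusters and points single libraries with at least 10 cells. Venous-gene clusters had the shortest Pdgfb bars in both preparations (227 and 159 CPM).

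Shares of cells with a UMI depend on depth, so cells were also thinned to 1500 UMIs (the heat map at equal depth). Cells below that depth were left out, on the cortical surface 75 of 714 border macrophage-like, 28 of 548 endothelial-like and 13 of 264 mesenchymal-like cells. At that depth Pdgfrb was seen in 88.2% of 228 pericyte-like cells of the cortical surface and 79.1% of 139 in the bone-associated libraries, against 96.6% and 98.6% unthinned. Pdgfra was seen in 41.8% of 251 and 17.7% of 293 mesenchymal-like cells, against 79.2% and 70.9% unthinned. Pdgfb was seen in 36.3% of endothelial-like and 28.6% of microglia-like cells of the cortical surface, and in 44.3% of the bone-associated endothelial-like cells. B cell-like cells, which should lack these genes, gave at most 0.551% and 0.531% for any member at equal depth and 0.824% and 0.794% unthinned, at medians of 3821 and 4813 UMIs. Border macrophage-like cells showed Pdgfa in 2.5% of cells on the cortical surface and in 21.6% in the bone-associated libraries.

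**Figure D5:**
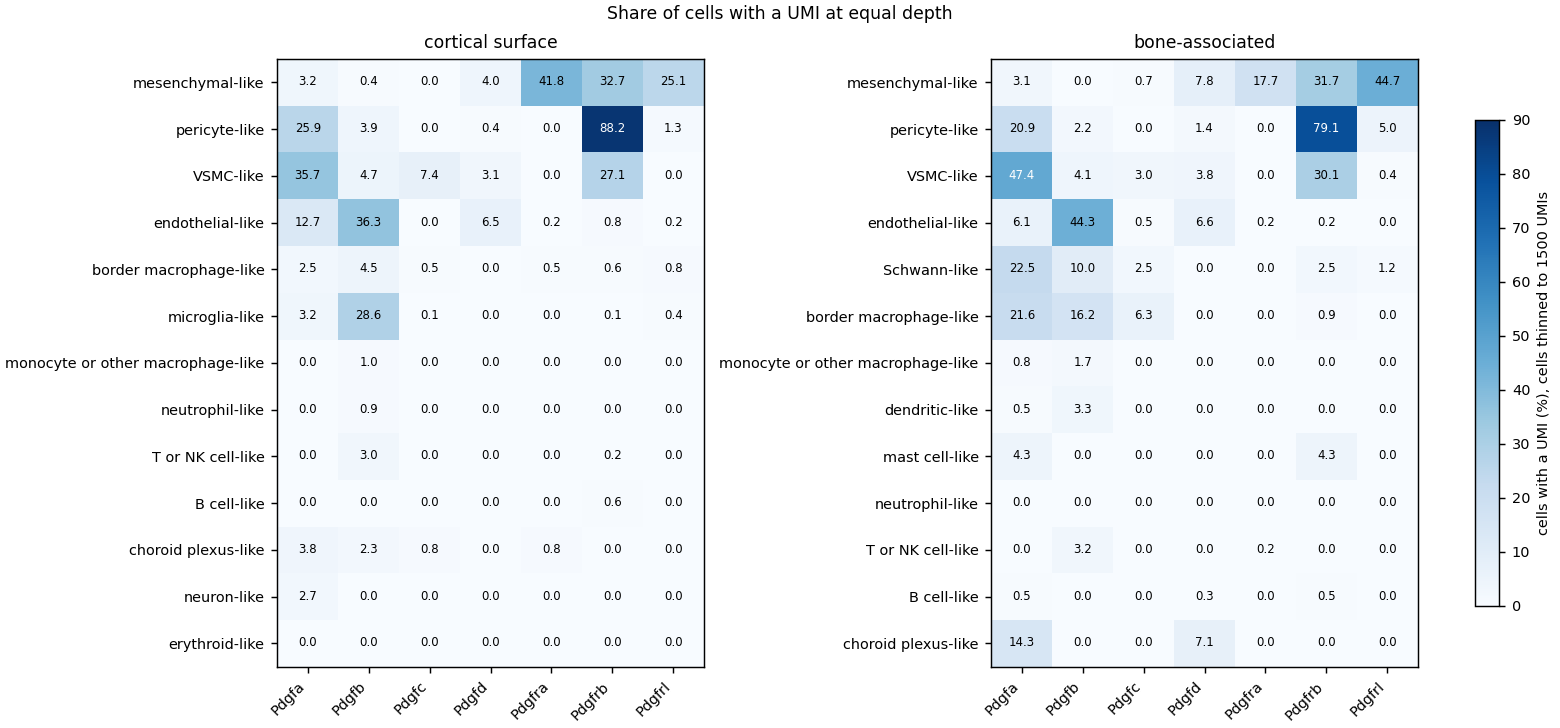
Share of cells (%) with a UMI of each gene (columns) in each named class (rows), cells thinned to 1500 UMIs and shallower cells left out, for the cortical surface (left) and the bone-associated libraries (right). Receptors concentrated in mesenchymal-like, pericyte-like and VSMC-like rows, and B cell-like rows stayed at 0.551% or less.

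The classes were then set side by side as senders and receivers, with a class counted where over 5% of its cells held a UMI of the gene. This counts RNA in classes, not binding, and was not tested. For Pdgfb and Pdgfrb, 8 classes were senders and 3 receivers (mesenchymal-like, pericyte-like and VSMC-like) on the cortical surface, and 8 were senders and 5 receivers in the bone-associated libraries, where mast cell-like and choroid plexus-like cells joined the receivers. The choroid plexus-like cells did so through 1 Pdgfrb UMI in 14 cells. For Pdgfa and Pdgfra there were 8 senders and 3 receivers on the cortical surface and 9 senders and 2 receivers in the bone-associated libraries. Pdgfc had 2 senders on the cortical surface (VSMC-like and neuron-like) and 4 in the bone-associated libraries, and Pdgfd 3 and 5. Over the 5 ligand and receptor combinations this made 87 class pairs on the cortical surface and 107 in the bone-associated libraries. Without bone-associated library 1 the latter count was 63. The 14 choroid plexus-like cells, 12 of them from that library, were senders and receivers in all 5 combinations, so many of the bone-associated pairs rest on them. At equal depth 15 and 28 pairs were counted, and at a limit of 10% of cells the cortical surface count was 41, so the numbers follow the depth and the limit. Classes differed in depth: the 14 choroid plexus-like cells of the bone-associated libraries had a median of 67678 UMIs, and the 264 mesenchymal-like cells of the cortical surface 7606.

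Some cells held UMIs of more than 1 member. Both receptors were seen in 171 of 264 mesenchymal-like cells of the cortical surface (64.8%) and 188 of 296 of the bone-associated libraries (63.5%), and at equal depth in 35 of 251 and 14 of 293. Pdgfa and Pdgfra were seen together in 39 and 81 of these mesenchymal-like cells, and at equal depth in 4 of 251 and 3 of 293. In VSMC-like cells of the cortical surface Pdgfb and Pdgfrb were seen together in 78 of 260 cells, and at equal depth in 3 of 258. Pericyte-like cells of the cortical surface showed Pdgfrb alone of the 2 receptors, in 229 of 237 cells.

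Over 64 sums of a class and a library, the genes most like each member among 10097 others were found by Pearson's r of log2(CPM + 1), as a description, since classes of a library share its depth. Pdgfra was most like Slc13a4 (0.94), Itih2 (0.92) and Cemip (0.90), Pdgfrb like Nfatc4, Ndufa4l2 (itself one of the pericyte markers) and Cd248 (all 0.93), and Pdgfrl like Svep1 (0.91), Epha3 (0.90) and Ror2 (0.89). Pdgfd was most like Tmtc1 (0.91), Wfdc1 (0.89) and Pgm5 (0.88), Pdgfa like Epn2 (0.89), Ift43 (0.88) and Cdc42bpa (0.88), Pdgfb like Chn2 (0.78), Enpp4 (0.72) and Klk8 (0.69), and Pdgfc like Grip2, Actg2 (both 0.70) and Plin4 (0.69). Between members r was 0.75 for Pdgfra and Pdgfrl, 0.67 for Pdgfrb and Pdgfrl and -0.16 for Pdgfb and Pdgfrb.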

How the data were processed

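The authors deposited raw UMI counts per gene and barcode, made with Cell Ranger (6.1.2 in the file headers, 3 in the submitters' processing notes) on mm10. Of 17560 barcodes, those with 500 genes or more and no more than 10% of UMIs from mitochondrial genes were kept, and 124 simulated-doublet calls were removed. No correction for free RNA or for batches between libraries was made. Each preparation was clustered by the Leiden method on a graph of shared nearest neighbours (2000 variable genes, 30 components, resolution 1.5), without the 7 members and the pathway lists. Clusters were named from markers of 21 classes, so they are not the authors' clusters. Clusters led by motile cilia genes were left unnamed, from a gene list made after the clusters were seen. Sums of UMIs over the cells of a class in 1 library were tested with edgeR 4.0.16 (TMM, adjusted over all genes tested), with DESeq2 1.42.0 as an alternative. Simulated counts with a fixed spread were used to check the mesenchymal-like comparison between preparations. The endothelial-like against pericyte-like comparison of the cortical surface was checked in the same way, with only those classes in the fit. The other comparisons, among them those within the bone-associated libraries, were not simulated. Members and lists were chosen with earlier results of these data known. Named genes are the members, at most the 2 largest called changes per list and comparison, and the 3 genes most like each member. Intervals and floors cover counting error only. The p-values between preparations measure the spread between libraries, and those between classes the spread left after the library block, shared by the classes fitted together.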

Additional observations from a re-analysis of the deposited data

Results flagged for a closer look

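Of 19 groups of 4 libraries checked for a value far from the rest, 1 stood out, about what chance gives (1 in 20). Pdgfa in endothelial-like cells was at 82.4 CPM in cortical surface library 4, against 92.0, 93.7 and 93.3 CPM in libraries 1 to 3. The gap took 0.844 of the range, above the limit of Dixon's test for 4 values. With hemoglobin genes left out of the totals, library 4 stood at 92.1 CPM.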

How the results depend on the processing

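Over 689 alternative values of the 52 member comparisons, 653 kept their direction and side of the limits, 11 lost the call, 11 gained it and 14, all of differences not called in either setting, changed direction. Between preparations, these were Pdgfrb in mesenchymal-like cells (0.12 thinned, and -0.20 to 0.046 leaving out 1 library, above 0 without cortical surface library 1 or 2 or bone-associated library 1), Pdgfd in endothelial-like cells (-0.19 with own clustering, -0.24 with Sema3g-led clusters included, and -0.095 to 0.25 leaving out 1 library, below 0 without cortical surface library 1 or bone-associated library 2), Pdgfa in pericyte-like cells (-0.030 with own clustering, and -0.077 to 0.53, below 0 without bone-associated library 1), Pdgfd in VSMC-like cells (-0.11 to 0.33, below 0 without cortical surface library 2 or bone-associated library 1) and Pdgfrb in VSMC-like cells (0.016 with upper-quartile scaling, and -0.20 to 0.046, above 0 without cortical surface library 2). Gene counts per comparison fell when cells were thinned to 1500 UMIs, where fewer genes were tested. In the order mesenchymal-like, endothelial-like, pericyte-like, VSMC-like and border macrophage-like between preparations, they fell to 605, 250, 276, 159 and 167. Against pericyte-like cells the mesenchymal-like, endothelial-like and VSMC-like counts became 821, 1022 and 745 on the cortical surface and 692, 929 and 648 in the bone-associated libraries, and the macrophage count against microglia-like cells became 609. Without the filter on cells, with more genes tested, the endothelial-like count between preparations was 802, that against pericyte-like cells of the cortical surface 2839 and the macrophage count 2278. Without the Ccl11-led clusters the pericyte-like count was 412, and with each library clustered on its own the bone-associated VSMC-like count was 948. The cause of these 2 changes was not tested.

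Leaving out 1 library gave 1306 to 1444 genes for mesenchymal-like, 392 to 539 for endothelial-like, 490 to 649 for pericyte-like, 452 to 571 for VSMC-like and 236 to 503 for border macrophage-like cells between preparations, the lowest without bone-associated library 2. It gave 1457 to 1585, 1744 to 1962 and 1050 to 1353 for the cortical surface class comparisons and 1181 to 1343 for macrophages. For the bone-associated class comparisons no such fit could be made, since 1 library leaves no residual degrees of freedom.

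Levels moved by more than the SD between libraries in these cases. Pdgfa in cortical surface VSMC-like cells was 320 CPM with libraries clustered on their own and 348 CPM thinned. Pdgfc in VSMC-like cells was 55.7 CPM thinned on the cortical surface, and 31.5 CPM without doublet removal, 31.2 CPM with own clustering and 18.4 CPM thinned in the bone-associated libraries. Pdgfd in bone-associated mesenchymal-like cells was 46.6 CPM thinned, and Pdgfrb in bone-associated pericyte-like cells 953 CPM with own clustering (library 2 only) and 1228 CPM thinned. Class pairs went from 87 to 15 (thinned) and 41 (over 10%) on the cortical surface, with 65 to 84 when 1 library was left out, and from 107 to 28 (thinned) in the bone-associated libraries, with 63 (without library 1) and 126.

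The call of Pdgfc in VSMC-like over pericyte-like cells of the cortical surface was lost with DESeq2 (adjusted p = 0.421), as given above. That of Pdgfa in bone-associated VSMC-like over pericyte-like cells was lost with own clustering (1.22), where the pericyte-like cells came from library 2 only. Pdgfa in cortical surface endothelial-like over pericyte-like cells was called with upper-quartile scaling (-1.32) and without library 2 (-1.37). Pdgfd in bone-associated mesenchymal-like over pericyte-like cells was called with at least 1000 genes per cell (1.33), and, without the Ccl11-led clusters, there (2.11) and in endothelial-like cells (1.81). Without cortical surface libraries 3 and 4, or without hemoglobin genes, no member call changed (31 and 52 values).

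Libraries of the 2 preparations share only replicate numbers 1 and 2. Deviations of same-numbered libraries correlated at 0.168 to 0.361, and a replicate block, or its removal where it was used, changed 0 of the 52 member calls, the Pdgfra difference in mesenchymal-like cells being 1.00 with the replicate block.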
